A study of Mus musculus with 4 samples.

Results

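Genes of the muscle Z-disc, of its LIM proteins and of the intermediate filaments around it were followed, 5 of the 1000 genes in the deposited read count table. They were chosen by symbol, as Actn3 (NM_013456), Tcap (NM_011540), Flnc (NM_001081185), Des (NM_010043) and Fhl1 (NM_001077362). Each was counted in 4 libraries from tibialis anterior, a leg muscle, of Dmd Dup2 mice. Both groups carry that Dmd genotype, in which exon 2 of the dystrophin gene is duplicated. One group was an untreated control. The other had received scAAV9.U7-ACCA, an exon-skipping vector in which adeno-associated virus of serotype 9 carries a U7 small nuclear RNA. Each group gave 1 mRNA library and 1 library of ribosome footprints, the mRNA fragments that ribosomes shield from nuclease. The labels used here do not give age, sex, vector dose or the number of animals behind a library.

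The Z-disc is the border between sarcomeres, where actin filaments of opposite polarity are cross-linked and the ends of titin are anchored. Alpha-actinin forms the cross-links, telethonin (the Tcap product) caps titin, filamin C bridges the Z-disc to the membrane, and desmin filaments wrap the Z-disc and tie neighbouring myofibrils together. LIM domains are zinc-binding folds that dock proteins onto one another. Fhl1 is made up of such domains, and inherited faults in FHL1, FLNC, DES and TCAP each cause human muscle disease.

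The mRNA libraries differed widely in depth, with 125236 reads over the listed genes untreated against 4248818 treated, while the footprint libraries had 3349015 and 1664122. The table holds the genes with the most untreated mRNA reads, down to 14. A gene low in untreated mRNA could therefore not be listed, while one low in treated mRNA could. This favours lower calls in treated mRNA, and with them higher footprints relative to mRNA in treated muscle. The shares over all genes carry the same filter. With 1 library per group no difference has a replicate check and no test was made. Intervals are 95% and cover counting error only, and reads carried no molecular identifiers. A gene is called higher or lower where 2 libraries differ by at least 1.5-fold, the interval excludes 1 and the pair holds at least 50 reads. All 5 genes passed that minimum. Levels are CPM after TMM scaling, which sets libraries to a common level from the bulk of their genes. They are not divided by transcript length, so they compare libraries and not genes.

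Promoter sequence is shown for Des and Fhl1, the members lower in treated muscle in both kinds of library. RefSeq windows of assembly GRCm38.p6 were found for 3 of the 5 genes, Des, Flnc and Fhl1. The reads were placed on mm9, per the submitters' processing notes, and no coordinate was moved between the builds. Each line gives the 250 bases before a transcription start on the plus strand. Capitals mark matches to 4 motifs searched on both strands. These were the E-box (CANNTG), the TATA box (TATAAA), and the MEF2 and CArG motifs, known by name as sites of muscle and serum response factors.
Des, chr1:75360042-75360291: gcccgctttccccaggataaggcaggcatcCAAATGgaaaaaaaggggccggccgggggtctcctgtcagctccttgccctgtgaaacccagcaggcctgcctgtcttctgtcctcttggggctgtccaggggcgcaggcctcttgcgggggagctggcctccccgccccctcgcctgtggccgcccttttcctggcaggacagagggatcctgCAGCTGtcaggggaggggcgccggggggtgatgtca
Fhl1, first start, chrX:56779433-56779682: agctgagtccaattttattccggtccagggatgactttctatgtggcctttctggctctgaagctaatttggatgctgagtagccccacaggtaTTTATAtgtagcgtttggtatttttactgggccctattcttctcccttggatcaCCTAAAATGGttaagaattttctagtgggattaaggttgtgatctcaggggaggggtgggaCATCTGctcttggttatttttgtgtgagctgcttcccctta
Fhl1, second start, chrX:56786277-56786526: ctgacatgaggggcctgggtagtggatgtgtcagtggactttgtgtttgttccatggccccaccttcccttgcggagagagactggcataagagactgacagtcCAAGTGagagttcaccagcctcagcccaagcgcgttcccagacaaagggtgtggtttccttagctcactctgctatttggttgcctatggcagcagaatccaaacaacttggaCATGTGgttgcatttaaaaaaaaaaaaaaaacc
The Des window held 2 E-boxes, at 220 to 215 and 36 to 31 bases before the start. The window of the first Fhl1 start held 1 E-box at 41 to 36, 1 CArG match at 102 to 93 and, on the opposite strand, 1 TATA box at 156 to 151 bases before it. The second Fhl1 window held 2 E-boxes, at 146 to 141 and 33 to 28. No match overlapped another. Of 32841 windows of the same length, 66.2% held an E-box, 12.4% a TATA box, 2.92% a MEF2 and 1.47% a CArG match. Neither of the overlapping Flnc windows held these letters. Fhl1 has 4 curated RefSeq transcripts, and the gene counts do not show which start the reads came from.

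Relative to the other genes, Actn3 stood on the higher side in treated mRNA, Des and Fhl1 on the lower side, and Tcap and Flnc in between. Of the 5 members 1 was called higher in treated mRNA, against 31.8% of the 996 genes compared, and 2 were called lower, against 24.8%. In footprints 1 member was called higher, against 19.9% of 999 genes, and 3 were lower, against 26.2%. In translation efficiency, which is the ratio in footprints over that in mRNA, 2 were higher against 26.0% of 995 genes, and 2 were lower against 31.9%. Counts this small do not set the 5 genes apart from the table.

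**Figure D1:**
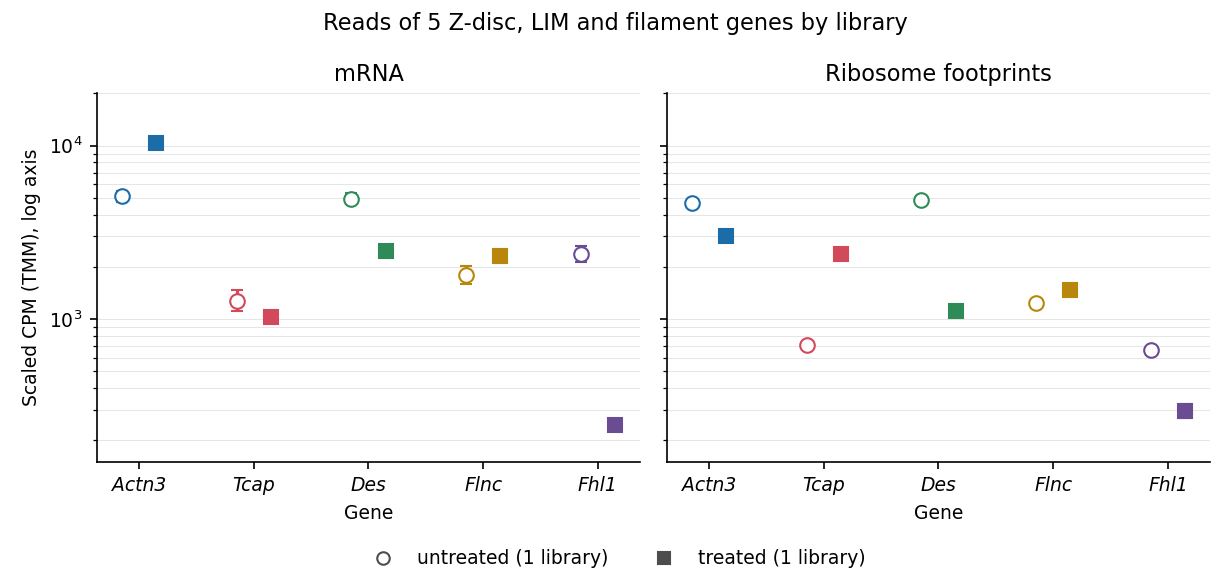
Scaled CPM (TMM, log axis) of the 5 genes in the mRNA libraries (left) and the footprint libraries (right). Open circles are the untreated and filled squares the treated library, 1 each, and bars are exact 95% Poisson intervals, often smaller than the symbol. Fhl1 mRNA goes from 2374 to 246, while Tcap footprints go from 707.9 to 2369.

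Actn3 encodes alpha-actinin-3, the actin cross-linker of fast fibres. Its mRNA reads numbered 800 in the untreated and 35050 in the treated library, or 5106 and 10377 CPM. Its footprints numbered 15983 and 4955, or 4693 and 3012 CPM. The treated library was therefore the higher one in mRNA and the lower one in footprints. The mRNA ratio was 2.03 (1.90 to 2.18) and the footprints were 1.56-fold lower (1.51 to 1.61). Translation efficiency was 3.17-fold lower (2.93 to 3.42) in treated muscle. It was 2.07-fold lower with the listed totals and with the authors' constants. The mRNA call depends on scaling. The ratio was 1.29 with the listed totals and 1.10 with the authors' constants, neither of them called. The footprint value was 1.48-fold lower, just under the threshold, when totals left out the 20 most abundant genes.

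Its relative Actn2, the alpha-actinin of all fibres, differed in the other direction in mRNA. Actn2 had 748 and 3849 mRNA reads and 14737 and 2685 footprints. It was 4.19-fold lower (3.87 to 4.53) in treated mRNA and 2.65-fold lower (2.54 to 2.76) in treated footprints. The ratio of the 2 genes within a library needs no scaling. Per Actn2 read there were 1.07 Actn3 reads in untreated and 9.11 in treated mRNA, a log2 difference of 3.09 (2.94 to 3.24). In footprints there were 1.08 and 1.84 Actn3 reads per Actn2 read, a log2 difference of 0.77 (0.69 to 0.84). The balance was tilted to Actn3 in the treated library in both assays, and far more in mRNA. Actn1, a nonmuscle alpha-actinin, had 30 and 392 mRNA reads and 2823 and 722 footprints, and was 1.65-fold (1.10 to 2.39) and 1.89-fold (1.74 to 2.05) lower. The sources used here do not say how reads common to related genes were divided.

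Tcap encodes telethonin, the titin cap. Its mRNA reads numbered 200 untreated and 3468 treated, or 1276 and 1027 CPM. Its footprints numbered 2411 and 3898, or 707.9 and 2369 CPM. The 2 mRNA levels lay close together, while the treated footprint library was well above the untreated one. The mRNA value was 1.24-fold lower (1.07 to 1.43), which is under the fold threshold. Footprints were 3.35-fold higher (3.18 to 3.52), which placed Tcap at rank 21 from the highest of 999 genes. Translation efficiency was 4.17-fold higher (3.59 to 4.85), at rank 36 of 995. The footprint and translation efficiency calls held under all 5 scalings, with translation efficiency 6.38-fold higher with the listed totals and 6.37-fold with the authors' constants. The mRNA was called lower with the listed totals (1.96-fold), without the 20 most abundant genes (1.53-fold) and with the authors' constants (2.29-fold).

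Flnc encodes filamin C, the actin cross-linker of striated muscle. Its mRNA reads numbered 281 and 7830, or 1793 and 2318 CPM, and its footprints numbered 4218 and 2424, or 1238 and 1473 CPM. Both treated levels were slightly above the untreated ones, and neither was called. The mRNA ratio was 1.29 (1.15 to 1.46), the footprint ratio 1.19 (1.13 to 1.25) and the translation efficiency ratio 0.922 (0.811 to 1.05). The sign of the mRNA value turns with scaling, at a log2 ratio of 0.37 with TMM, −0.28 with the listed totals and −0.51 with the authors' constants, and the footprint value goes from 0.25 to −0.02 with those constants. The translation efficiency ratio was 1.41 with the listed totals and with the authors' constants. Flna, the widely expressed filamin A, had 21 and 1097 mRNA reads and 857 and 400 footprints. Its mRNA ratio was 2.42 (1.58 to 3.93) from few untreated reads, and its footprint ratio was 0.966 (0.856 to 1.09). Of the 7 alpha-actinin and filamin genes 5 were in the table. In mRNA 2 were higher (Actn3 and Flna) and 2 lower (Actn1 and Actn2), against 31.8% and 24.8% of all genes. In footprints 0 were higher and 3 lower, the alpha-actinins, against 19.9% and 26.2%. With the authors' constants the mRNA counts were 0 higher and 2 lower, against 11% and 54.5% of all genes, and without the 20 most abundant genes 2 were lower in footprints, against 23.3%.

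Des encodes desmin, the intermediate filament protein of muscle. Its mRNA reads numbered 776 and 8351, or 4952 and 2472 CPM. Its footprints numbered 16552 and 1821, or 4860 and 1107 CPM. The treated library was the lower one in both assays, with the wider gap in footprints. The mRNA ratio was 0.499 (0.464 to 0.538) and the footprints were 4.39-fold lower (4.18 to 4.61), at rank 20 from the lowest of 999 genes. Translation efficiency was 2.19-fold lower (2.01 to 2.39). Both level calls held under all 5 scalings, the mRNA being 3.15-fold lower with the listed totals and 3.69-fold with the authors' constants. The translation efficiency value was under the fold threshold with the listed totals (1.43-fold lower) and the authors' constants (1.44-fold lower). Vim, which encodes vimentin, the intermediate filament protein of mesenchymal and immature cells, had 54 and 882 mRNA reads and 3106 and 1309 footprints. It was called in neither assay, and its footprint value was 1.15-fold lower (1.07 to 1.22). Des footprints per Vim footprint went from 5.33 untreated to 1.39 treated, a log2 difference of −1.94 (−2.05 to −1.82). In mRNA there were 14.4 and 9.47 Des reads per Vim read, a smaller log2 difference of −0.60 (−1.01 to −0.19).

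Fhl1 encodes the four-and-a-half LIM domain protein of muscle, and the gene lies on the X chromosome. Its mRNA reads numbered 372 and 831, or 2374 and 246 CPM, and its footprints numbered 2256 and 485, or 662.4 and 294.8 CPM. The treated library was the lower one in both assays, with the wider gap in mRNA. The mRNA was 9.65-fold lower (8.52 to 10.9), at rank 8 from the lowest of 996 genes, and the footprints were 2.25-fold lower (2.04 to 2.48). Translation efficiency was 4.30-fold higher (3.68 to 5.03), at rank 32 of 995. These 3 calls held under all 5 scalings, but their size moved. The mRNA was 15.2-fold lower with the listed totals and 17.8-fold with the authors' constants, and translation efficiency was 6.58-fold and 6.57-fold higher.

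**Figure D2:**
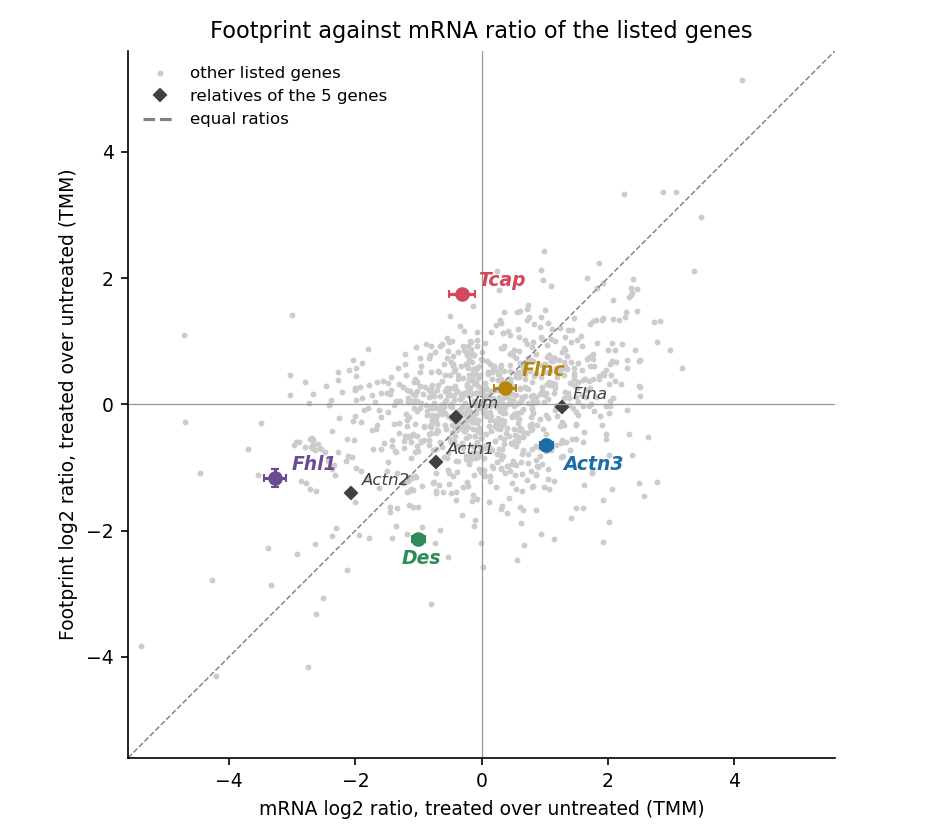
Log2 ratio of treated over untreated reads in footprints (vertical) against mRNA (horizontal), TMM-scaled, for the listed genes (grey), the 5 members (coloured, with 95% intervals) and 4 relatives (diamonds). Tcap and Fhl1 lie above the line of equal ratios, Actn3 and Des below it, and Flnc near it at 0.37 and 0.25.

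The order of the 5 genes differed between the assays. Measured from the median gene, a difference that no scaling changes, the mRNA log2 ratios were 0.96 for Actn3, 0.31 for Flnc, −0.37 for Tcap, −1.06 for Des and −3.33 for Fhl1. In footprints the same differences were 1.76 for Tcap, 0.27 for Flnc, −0.62 for Actn3, −1.15 for Fhl1 and −2.11 for Des. Neighbours in each order were separated beyond counting error, since the interval of the difference excluded 0 in all 10 pairs of members, in mRNA and in footprints. Spread between animals could not be set beside these gaps.

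The widest gap in mRNA was between Actn3 and Fhl1, with 2.15 Actn3 reads per Fhl1 read untreated and 42.2 treated, a log2 difference of 4.29 (4.09 to 4.50). In footprints the same pair went from 7.08 to 10.2 (log2 difference 0.53, 0.38 to 0.68). The widest gap in footprints was between Tcap and Des, which went from 0.146 Tcap footprints per Des footprint to 2.14 (log2 difference 3.88, 3.78 to 3.98). In mRNA that pair went from 0.258 to 0.415 (0.69, 0.46 to 0.92). The pair farthest apart in one assay was much closer in the other. Each pair was picked for its gap in one assay, which favours a smaller gap in the other.

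Footprints per mRNA read were also compared within each condition, against the median listed gene. In untreated muscle Des stood at a log2 value of −0.03 (−0.13 to 0.08) and Actn3 at −0.12 (−0.22 to −0.02), both near the median gene. Flnc stood at −0.54 (−0.71 to −0.36), Tcap at −0.85 (−1.06 to −0.65) and Fhl1 at −1.84 (−2.00 to −1.68), at rank 49 from the lowest of 1000 genes. In treated muscle Tcap stood at 1.22 (1.15 to 1.29) and Fhl1 at 0.27 (0.11 to 0.44), above the median gene. Flnc was at −0.64 (−0.71 to −0.57), Des at −1.15 (−1.22 to −1.07) and Actn3 at −1.77 (−1.81 to −1.73). The members with the lowest values in untreated muscle, Fhl1 and Tcap, thus had the highest in treated muscle, and Flnc kept nearly the same value. Genes were listed by untreated mRNA reads, which favours low values in untreated muscle, and the median gene carries the same filter. The mRNA reads cover the whole transcript and the footprints mainly its coding part, so a gene's level here also holds its untranslated length. That length drops out of the difference between conditions only if both use the same transcripts, which gene counts do not show.

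**Figure D3:**
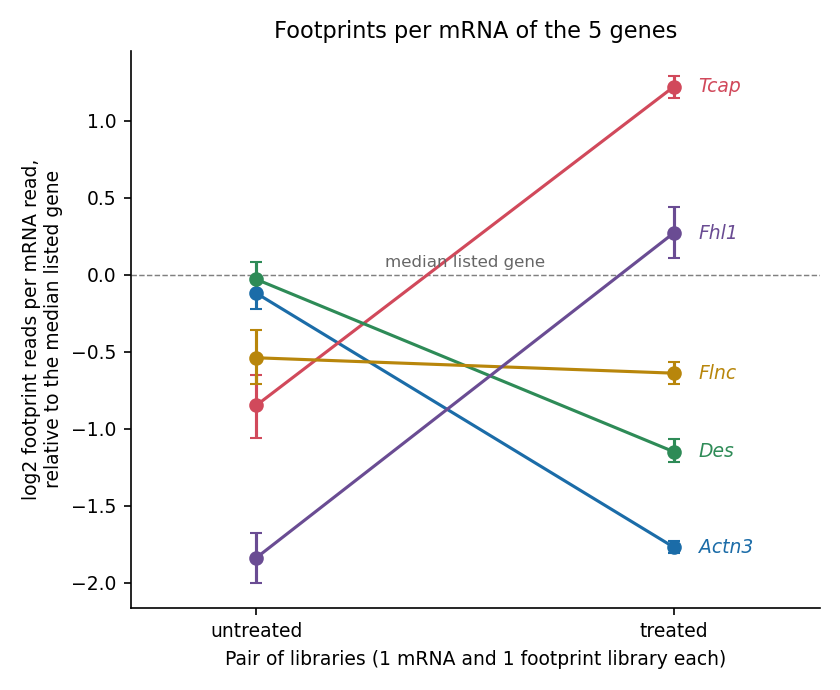
Footprint reads per mRNA read on a log2 scale, relative to the median listed gene (dashed line), in the untreated and treated pair of libraries, with 95% intervals for counting error. The lines of Tcap and Fhl1 go up, from −0.85 to 1.22 and from −1.84 to 0.27, those of Actn3 and Des go down, and that of Flnc is nearly level.

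Lists of related genes place the members in context, and their counts are read against those of all genes compared. With TMM 31.8% of all genes were higher and 24.8% lower in mRNA, and 19.9% higher and 26.2% lower in footprints. With the authors' constants these shares were 11% and 54.5% in mRNA and 11.4% and 36.5% in footprints. A scaling moves all genes together, so the distance of a list's median from the median gene does not move with it.

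Of 30 Z-disc genes, 17 were in the table, 8 of them called higher and 1, Actn2, lower in treated mRNA, and their median was 0.46 log2 units above that of all genes compared. With the authors' constants those calls were 0 higher and 6 lower, against 11% and 54.5% of all genes. The highest were Myot, the actin-bundling myotilin, at 2.76-fold (2.23 to 3.46), and Murc, a caveola protein of muscle, at 2.49-fold (1.55 to 4.29). In footprints 4 of the 17 were higher and 3 lower, against 19.9% and 26.2% of all genes. Nrap, which links actin to the membrane in forming myofibrils, was 2.09-fold higher (2.01 to 2.16), next after Tcap. Capzb, the beta subunit of the actin capping protein, was 2.09-fold lower (1.86 to 2.35), next after Actn2. Actn3 was the other member of this list called lower.

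Of 53 LIM genes, 7 were in the table, and Fhl1 was the lowest in both assays. In mRNA 2 were higher and 2 lower, against 31.8% and 24.8% of all genes. Nrap was 1.91-fold (1.71 to 2.15) and Ldb3, the Z-disc protein also called ZASP, 1.54-fold (1.26 to 1.88) higher. Crip1, a small LIM protein, was 8.18-fold lower (4.76 to 13.6) from 22 untreated and 58 treated reads. In footprints Nrap and Ldb3 were higher and Fhl1 alone was lower. Crip1 had 151 and 101 footprints, a ratio of 1.38 (1.07 to 1.79) that was not called. In translation efficiency 2 of the 7, Fhl1 and Crip1, were called higher and 0 lower, against 26.0% and 31.9% of all genes. With the listed totals or the authors' constants 5 of the 7 were called higher in translation efficiency, as were 44.6% of all genes.

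Of 17 genes of intermediate filaments and their linkers, 4 were in the table, and 3 of them were lower and 0 higher in treated mRNA, against 24.8% and 31.8% of all genes. Beside Des these were Nes, which encodes nestin, the filament protein of immature fibres, at 4.02-fold lower (2.76 to 5.70), and Lmna, the nuclear lamin A gene, at 1.62-fold lower (1.10 to 2.33). Lmna was named after its value was seen. Here and among the LIM genes, a gene low in untreated mRNA could not be listed. That favours lower calls in mRNA and higher calls in translation efficiency. In footprints Nes was 2.92-fold lower (2.39 to 3.58) and Lmna was not called. In translation efficiency 1 of the 4, Des, was called lower and 0 higher, against 31.9% and 26.0% of all genes. With the listed totals or the authors' constants 0 were lower and 3 higher. Of all genes 15.8% and 15.9% were then lower, and 44.6% were higher with either.

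Of 12 genes of chaperones that act on filamin C, desmin or muscle myosin, 7 were in the table. In footprints 4 were called higher and 0 lower, against 19.9% and 26.2% of all genes, and their median was 0.63 above that of all genes compared. Hspb1, a small heat shock protein, had 1009 and 2637 footprints and was 5.41-fold higher (5.03 to 5.82). Hspb8, its relative that acts with Bag3, was 2.05-fold higher (1.80 to 2.33). In mRNA Hspb8 was 2.14-fold (1.41 to 3.43) and Hspb1 1.99-fold (1.40 to 2.91) higher, and Cryab, the alpha-B crystallin gene, was 1.73-fold lower (1.31 to 2.25). With the authors' constants the mRNA calls were 0 higher and 5 lower, against 11% and 54.5% of all genes, and in footprints 3 were higher and 0 lower, against 11.4% and 36.5%.

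Of 16 costamere genes, which join the Z-disc to the membrane and matrix, 7 were in the table, with 4 higher and 0 lower in mRNA, against 31.8% and 24.8% of all genes. Ank3, the ankyrin-G gene, was 3.33-fold (2.13 to 5.55) and Tln2, a talin gene, 1.71-fold (1.12 to 2.74) higher. In footprints Ank3 alone was called, at 1.69-fold higher (1.45 to 1.97), and the list's median lay 0.34 below the median gene. With the authors' constants 1 costamere mRNA was higher and 3 were lower, against 11% and 54.5% of all genes, and 5 were lower in footprints, against 36.5%.

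**Figure D4:**
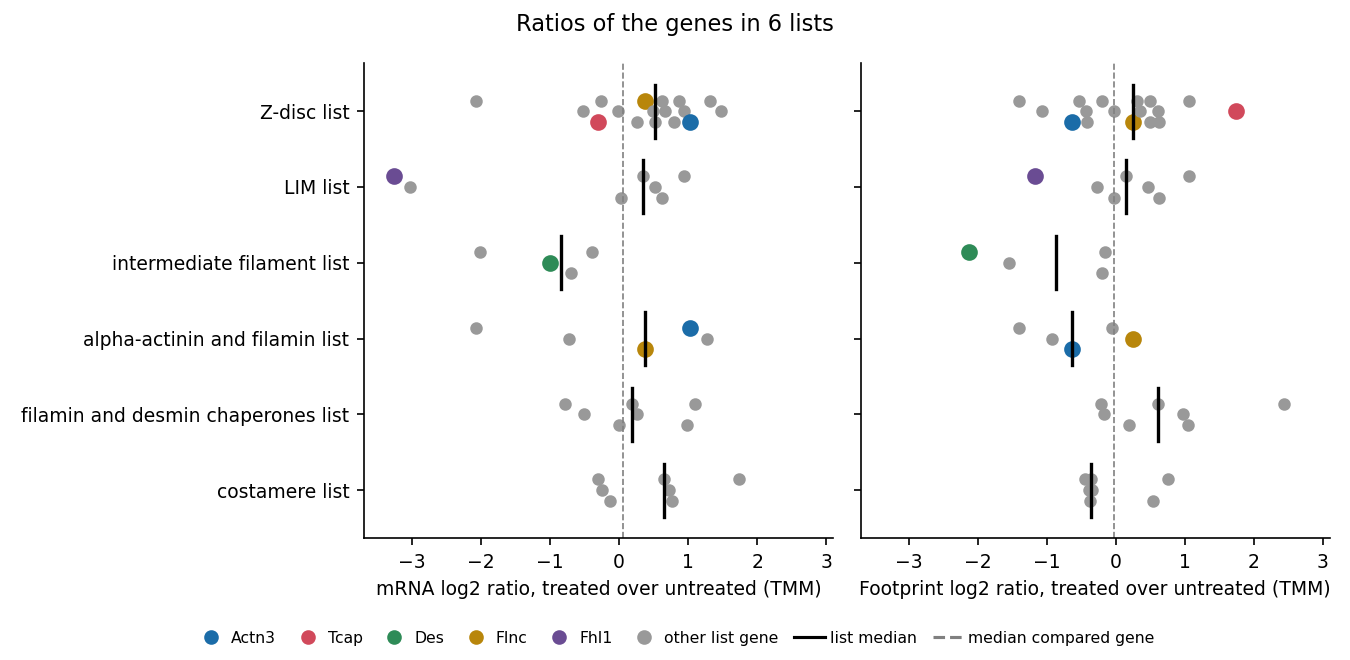
Log2 ratio of treated over untreated reads (TMM) in mRNA (left) and footprints (right) for the genes of 6 lists, with members coloured, list medians as black bars and the median compared gene as a dashed line. Fhl1 and Des are the lowest footprint values of their lists, at −1.17 and −2.13, and Tcap is the highest of the Z-disc list at 1.74.

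Markers of other cell types differed between the same libraries. Of all genes compared, 31.8% were higher and 24.8% lower in mRNA, and 19.9% higher and 26.2% lower in footprints. Genes were listed by untreated mRNA reads, so a marker low in untreated muscle could not enter, which favours lower calls among those listed. Of 17 macrophage markers, 5 were in the table, and all 5 were lower in treated mRNA and in treated footprints, their summed share of listed reads being 0.137% untreated and 0.0197% treated in mRNA and 0.144% and 0.0636% in footprints. Of 10 fibroblast markers, 8 were in the table, 4 lower and 2 higher in mRNA and 7 lower and 0 higher in footprints. Their summed share was 2.15% and 0.324% in mRNA and 2.98% and 0.638% in footprints. Of 11 immature fibre markers, 4 were in the table. With TMM 2 of them, Actc1 and Myl4, were lower in each assay, and Myh8 and Myh3 were called in neither. The summed share of the 4 was 5.71% and 2.93% in mRNA and 8.35% and 7.14% in footprints. Myh8 alone held 91577 of their 124394 treated mRNA reads, so the share mainly follows genes that were not called. Of 7 endothelial and smooth muscle markers only Acta2 was in the table, at 0.0551% and 0.0216% of mRNA and 0.339% and 0.249% of footprint reads. No listed marker was at 0, and the others were not analysed here. For the labelled tissue, 7 of 8 skeletal muscle markers were in the table, with 2 (Ckm and Myh4) called higher and 0 lower in mRNA and 1 (Mb) higher and 2 (Acta1 and Mylpf) lower in footprints. With the authors' constants the skeletal muscle mRNA calls were 0 higher and 4 lower, against 11% and 54.5% of all genes. Those of fibroblast markers were then 1 higher and 6 lower, and those of immature fibre markers 0 and 4. The skeletal muscle markers held 27.1% and 19.1% of listed mRNA reads and 27.5% and 24.8% of footprints. A single gene held 1126793 of the 4248818 treated mRNA reads, which lowers the share of every other gene in that library. In whole muscle, fewer cells of a type and less RNA per cell cannot be told apart, and the part of these cells in the members' values was not tested.

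The genes most like each member were sought over the 4 libraries, by the distance between log2 levels each centred on its own mean, among 243 other genes with at least 50 reads in every library. The nearest to Actn3 were Macf1 at a distance of 0.22 log2 units, Mybpc2 at 0.29 and Myoz1 at 0.31. The nearest to Flnc were Tmod4 at 0.17, Park7 at 0.31 and Ugp2 at 0.33. Tcap was nearest to Hk2 at 0.45, Car3 at 0.65 and Hadhb at 0.70, and Des to Mybpc1 at 0.57, Eef1a1 at 0.73 and Cfl2 at 0.75. Fhl1 had the most distant neighbours, Pa2g4 at 0.88, Ppp3r1 at 0.96 and Lgals1 at 0.99. With 4 libraries such a likeness is a description. Neighbours were chosen on the levels that give the ratios, so alike ratios follow from the choice. Hk2, for example, had log2 ratios of −0.34 in mRNA and 1.24 in footprints, the same split as Tcap, and Mybpc2 had 0.93 and −0.81, the same split as Actn3.

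**Figure D5:**
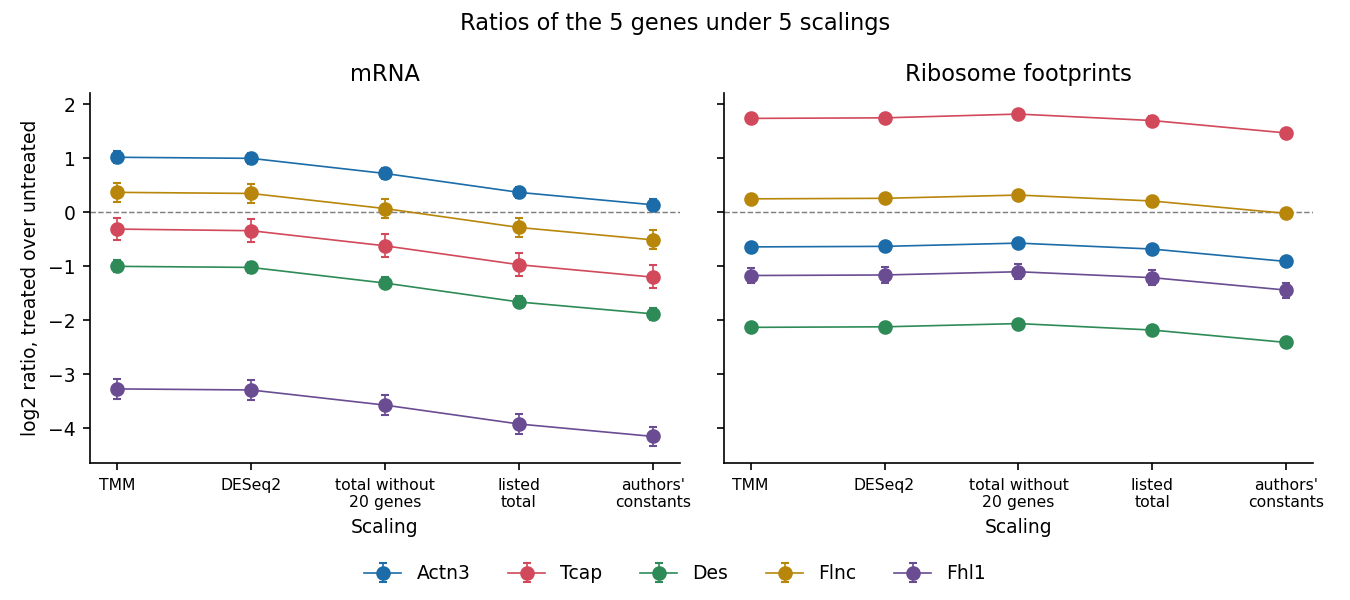
Log2 ratio of treated over untreated reads of the 5 genes under 5 scalings, in mRNA (left) and footprints (right), with 95% counting intervals. The lines run in parallel because a scaling moves all genes together, and the mRNA values of Actn3 go from 1.02 with TMM to 0.14 with the authors' constants while Fhl1 stays lowest throughout.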

How the data were processed

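The authors deposited 1 table of 1000 genes with read counts per library, whole numbers per the file headers. Its normalized read counts, read here as CPM, were made by the authors and equal the count times 1 constant per library within 0.1 in 99.4% to 100% of genes; whether that constant holds a normalization factor is not stated. The submitters' processing notes name Trimmomatic, STAR, edgeR and mm9 with no role or version, and no source used here gives the counting tool or strand setting.

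Raw counts were scaled with TMM (edgeR 4.0.16, R 4.3.3) over the listed genes. Ratios have exact conditional binomial intervals. Translation efficiency, differences between members and footprints per mRNA read have normal intervals on the log scale, the first and the last with 0.5 added to each count. The calculations were tested on simulated counts with known folds, counting error alone and the library scaling given. Such data cannot test the scaling or the spread between animals. Alternatives were DESeq2 1.42.0 size factors, other totals, other minimums, a 2-fold threshold and 5 added to each count. Levels per length and a split by protein length were planned but not made, because no transcript or protein lengths were used here. The members and lists were chosen with earlier results of these data known. Besides the members and their relatives Actn1, Actn2, Flna and Vim, most genes were named by rule. These were among the 2 highest or 2 lowest called of a list, or the 3 most alike to a member. Lmna, Bag3, Myh3 and Myh8 were named outside that rule. Other relatives were not analysed here.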

Additional observations from a re-analysis of the deposited data

How the results depend on the processing

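No paired analysis was possible because each group had 1 library. A change of scaling moves all genes together. The median mRNA log2 ratio was 0.06 with TMM, 0.04 with DESeq2 size factors, −0.25 without the 20 most abundant genes, −0.60 with the listed totals and −0.82 with the authors' constants, and higher calls made up 56.2%, 55.6%, 40.7%, 24.2% and 16.8% of the mRNA calls in that order. In footprints they made up 43.2%, 45.0%, 50%, 39.96% and 23.8%, and in translation efficiency 45.0%, 47.0%, 63.8%, 73.9% and 73.8%. DESeq2 size factors, and 5 added to each count for translation efficiency, left each member's call as it was, and no called member changed sign in any setting. The mRNA log2 ratios with the listed totals, with totals that leave out the 20 most abundant genes, and under the authors' constants were 0.37, 0.72 and 0.14 for Actn3, −0.97, −0.62 and −1.20 for Tcap, −1.66, −1.31 and −1.88 for Des, −0.28, 0.07 and −0.51 for Flnc, and −3.92, −3.57 and −4.15 for Fhl1. In the same order the translation efficiency values were −1.05, −1.29 and −1.05 for Actn3, 2.67, 2.44 and 2.67 for Tcap, −0.52, −0.75 and −0.52 for Des, 0.50, 0.26 and 0.49 for Flnc, and 2.72, 2.48 and 2.72 for Fhl1. Footprint values moved less. With the authors' constants they were −0.91 for Actn3, 1.47 for Tcap, −2.41 for Des, −0.02 for Flnc and −1.44 for Fhl1, and without the 20 most abundant genes −0.57 for Actn3, −2.06 for Des and 0.32 for Flnc.

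Counts of called genes moved likewise. With the listed totals and the authors' constants 148 and 110 genes were higher and 464 and 543 lower in mRNA, and 444 and 444 were higher and 157 and 158 lower in translation efficiency. Footprints gave 114 higher with the authors' constants. A 2-fold threshold gave 81 higher and 143 lower in footprints, and a minimum of 200 reads gave 160 lower in mRNA. The untreated mRNA library, with a median of 25 reads a gene, limits the precision of mRNA and translation efficiency values.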
